A study of Mus musculus with 4 samples.

Results

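Desmosome genes were evaluated in basal and luminal cells sorted from duct tips of prostates of young mice. The 10 genes, of 49671 in the deposited table, were chosen as named parts of the desmosome, with no threshold on their values but with earlier results of these data known. They encode the desmosomal cadherins Dsg2, Dsg3, Dsc2 and Dsc3, plakoglobin (Jup), the plakophilins Pkp1, Pkp2 and Pkp3, desmoplakin (Dsp) and the membrane protein Perp. All cells came from untreated CD-1 mice at postnatal days 10 to 13, from the tips of the ventral lobe, as labelled. The study's methods describe male mice of mixed background and give a narrower range of ages than the labels. Basal cells were sorted as EpCAM high and CD49f high and luminal cells as EpCAM high and CD49f low, after exclusion of cells carrying CD45, CD31 or CD140a. RNA-seq was performed on 2 libraries of each cell type. They are labelled basal 1 and 3 and luminal 2 and 3, and paired values below are given with basal replicate 1 before 3 and luminal replicate 3 before 2. The study compared the cells as multipotent basal cells and the luminal cells derived from them. The gate reads CD49f at the time of sorting and does not trace descent. The sources used here do not tie libraries to animals, so the p-values measure the spread between these libraries, which may be technical.

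Desmosomes are spot-like junctions that tie the keratin filaments of neighbouring epithelial cells together. Desmogleins and desmocollins bind each other across the gap between cells, plakoglobin and the plakophilins bind the cadherin tails inside the cell, and desmoplakin links this plaque to keratin. Stratified epithelia use a broader set of these proteins in their basal layer than simple epithelia do, which rely mainly on Dsg2, Dsc2 and Pkp2. The prostate epithelium has both kinds of cell side by side, with keratin 5 and keratin 14 filaments in basal cells and keratin 8 and keratin 18 filaments in luminal cells.

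The deposited values are gene counts that the authors scaled to a common total of aligned reads, called normalized counts here. Between 97.5% and 99.0% of a library's low values, up to 20 reads, lay within 0.1 read of a whole multiple of what 1 read is worth. Dividing by that worth gave a depth of 3194198 and 3082351 reads for the basal libraries but 1036679 and 643270 for the luminal ones. Recovered reads are approximate in every library, since the other low values lay off this spacing. Values of the 10 genes that came to 20 reads or fewer lay within 0.063 read of a whole read. In luminal replicate 2, 127 genes were listed above 0 but below the worth of 1 read, against 0 in each other library, so its values are not whole reads throughout. The edgeR and DESeq2 calls and the read shares below rest on its recovered reads, although there all 10 genes lay within 0.014 read of a whole read. Depth and cell type thus cannot be told apart. Nuclear protein-coding genes held 76.0% and 74.7% of the counts in basal but 57.3% and 64.2% in luminal libraries, and 23435 and 23258 against 20096 and 19490 genes were above 0. The part of this composition in the differences below was not tested, beyond a rescaling to nuclear protein-coding genes under which the members' median log2 fold change was -1.14 and that of all genes 0.21. All 4 basal markers were lower in luminal cells by limma, with Krt5 at 18481 and 15824 in basal and 77 and 93 in luminal libraries, and Itga6, which encodes CD49f, at 20222 and 16382 against 4337 and 3584. Of the 4 luminal markers, limma called none and edgeR called Krt8, Krt18 and Epcam higher in luminal cells. Counts of stromal and endothelial genes, which the gate should leave out, were found in every library. Pdgfra, which encodes CD140a, was at 3307 and 4144 in basal and 2575 and 8383 in luminal libraries, and the 10 stromal genes summed to 124270 and 246500 against 79571 and 241883. Of these 10, limma called none, 1 was lower and 1 higher in luminal cells at an unadjusted limma p under 0.05, and edgeR called 1 lower, the matrix gene Dcn, at 45830 and 47724 against 5770 and 20256. The smooth muscle genes Myh11 (13026 and 15447 against 1413 and 21907) and Des (820 and 1715 against 3207 and 2834) were called by neither test. The 5 endothelial genes summed to between 581 and 1745 and the 5 immune genes to between 833 and 2968, with Pecam1 between 174 and 833 and Ptprc, which encodes CD45, at 150 and 6 against 0 and 0. No endothelial or immune gene kept passed limma, edgeR or an unadjusted limma p under 0.05. In bulk samples fewer epithelial cells and less RNA per cell cannot be told apart, and the part of stromal RNA in the differences below was not tested. Ratios of genes within a library, given below, do not depend on how much of the library is epithelial as long as only epithelial cells express both genes.

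Most of the desmosome genes had lower RNA counts in the luminal than in the basal libraries. Both luminal libraries lay below both basal libraries for Dsp, Dsg2, Dsc2, Dsc3, Pkp1, Pkp3 and Perp. The same was true of 27.3% of all genes kept by the filter given below. Pkp2 went the other way, as 23.6% of all genes kept did. Jup overlapped between the groups, and Dsg3 was listed at 0 in all 4 libraries. The 10 genes together held 55463 and 46581 normalized counts in the basal libraries, which were 0.277% and 0.233% of all counts, and 21182 and 13650 in the luminal libraries, which were 0.106% and 0.0681%.

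**Figure D1:**
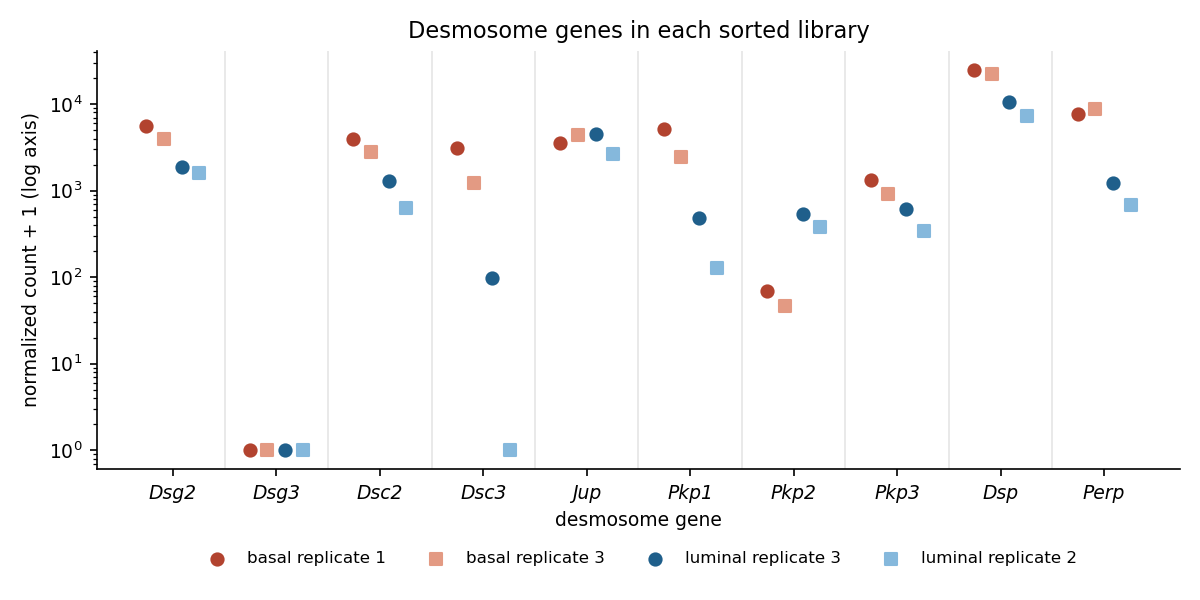
Normalized count plus 1 (log axis) of each desmosome gene in the 4 libraries, with 1 point per library and no averaging. Points at the foot of the plot are libraries at 0. Luminal points lie below basal points for 7 genes and above them for Pkp2. Of all genes kept by the filter, 27.3% lie below without overlap and 23.6% above.

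A gene was tested when 1 group or both had all its libraries at 10 or above and an average of 20 or above, which kept 9 of the 10 members and 18737 genes. Dsg3 was not kept, and Dsc3 passed through its basal values alone. By limma on log2 of the normalized count plus 1, with Benjamini-Hochberg adjustment over all genes kept, 1 member (Perp) was called lower in luminal cells at an adjusted p under 0.05, where 0.438% of all genes were. None was called higher, against 0.256% of all genes. At an unadjusted p under 0.05 by limma, 7 members were lower and 1 was higher, against 1997 and 1465 of all genes. edgeR's quasi-likelihood test on the recovered reads, which called 509 genes lower and 453 higher, called 6 members lower (Dsp, Pkp1, Dsg2, Dsc2, Dsc3 and Perp) against 2.72% of all genes, and Pkp2 higher against 2.42%. DESeq2 on the same reads also called 6 lower and 1 higher, against 2.22% and 2.15% of all genes. The ratio of group averages was at least 2-fold lower in luminal cells for 7 members, against 16.3% of all genes, and at least 2-fold higher for Pkp2, against 18.3%. The same 7 members had groups that did not overlap with luminal lower, against 27.3% of all genes, and Pkp2 with luminal higher, against 23.6%. The median fitted log2 fold change was -1.45 over the 9 members and -0.10 over all genes kept.

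**Figure D2:**
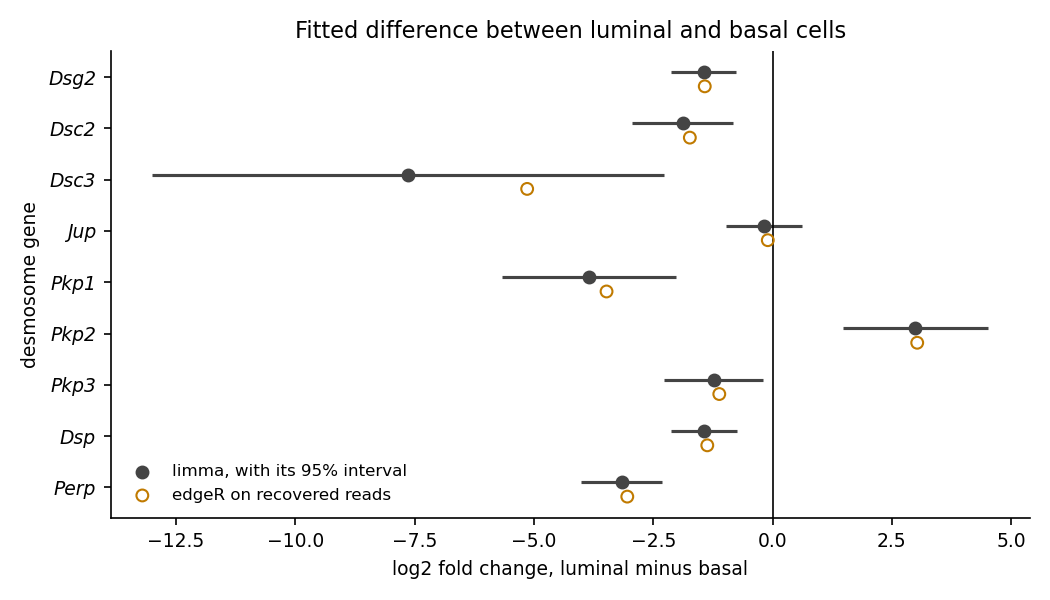
Fitted log2 fold change (luminal minus basal, n = 2 libraries each) of the 9 desmosome genes kept. Filled points are limma with bars for its 95% confidence interval, which treats genes singly, and open points are edgeR on recovered reads. Dsc3 has the widest bar, -12.99 to -2.27, and the bar of Jup crosses 0.

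Among the cadherins, Dsg2 is the desmoglein found in nearly every epithelium that makes desmosomes. It was at 5605 and 3956 normalized counts in basal and at 1878 and 1589 in luminal libraries. The groups did not overlap, and the basal average was 2.76-fold the luminal average. Its log2 fold change was -1.45 ± 0.27 (SE, n = 2 per group) with an adjusted p of 0.0688 by limma and 0.0193 by edgeR. Dsg3, the desmoglein of the basal layers of stratified epithelia, was listed at 0 in every library. Beside 895, 610, 97 and 51 reads of Dsg2, a count of 0, taken to allow 3 reads, allows Dsg3 up to 0.335%, 0.492%, 3.09% and 5.88% of the reads of the pair. Its absence from the counts is thus better bounded in basal than in luminal cells. These limits, like the intervals on reads below, cover counting error only.

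Dsc2 is the widely expressed desmocollin and Dsc3 the desmocollin of basal cells of stratified epithelia. Dsc2 was at 3971 and 2774 in basal and at 1297 and 623 in luminal libraries, without overlap. The log2 fold change of Dsc2 was -1.88 ± 0.42 (SE, n = 2 per group) with an adjusted p of 0.0823 by limma and 0.0217 by edgeR. Dsc3 was at 3131 and 1228 in the basal libraries and 97 and 0 in the luminal ones. The luminal values of Dsc3 rest on 5 reads and 0 reads, and 3 reads are worth 58.1 and 93.5 normalized counts in those libraries. The fitted log2 fold change of Dsc3, -7.63 by limma (adjusted p = 0.140) and -5.14 by edgeR (adjusted p = 0.00141), depends on how 0 is treated. By limma it was -4.32 without luminal replicate 2, -10.94 without luminal replicate 3, -6.96 without basal replicate 1 and -8.31 without basal replicate 3.

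The share of Dsc3 among desmocollin reads was lower in both luminal libraries, where it rests on 5 and 0 Dsc3 reads. The intervals on these shares do not cover the spread between libraries. Dsc3 made up 44.1% of the Dsc2 and Dsc3 reads in basal replicate 1 (95% Wilson interval 41.2% to 47.0%) and 30.6% in basal replicate 3 (27.1% to 34.4%). It made up 6.94% in luminal replicate 3 (3.00% to 15.2%, 5 of 72 reads) and 0 of 20 reads in luminal replicate 2 (Wilson upper bound 16.1%, or up to 15% when a count of 0 is taken to allow 3 reads). Neither luminal interval reached the basal shares. The shares of the basal libraries also lay outside each other's intervals. On the log2 scale the Dsc3 to Dsc2 ratio differed by -5.75 (luminal minus basal), by -4.04 with a pseudocount of 10 in place of 1, by -2.97 if luminal replicate 2 was left out and by -8.53 if luminal replicate 3 was. With 2 libraries against 2, the two-sided exact permutation test cannot go below p = 0.333, which is the value it gave for this ratio and for each of the other 4 ratios tested.

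**Figure D3:**
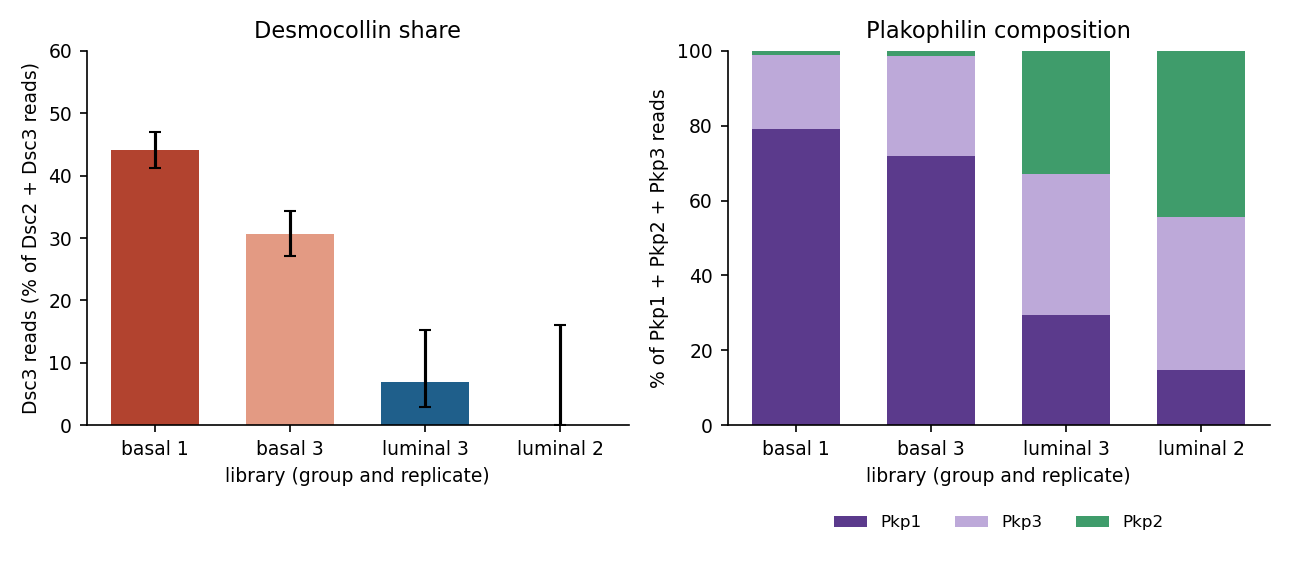
Left, Dsc3 reads as a percentage of Dsc2 plus Dsc3 reads in each library, with 95% Wilson intervals. Right, the reads of Pkp1, Pkp2 and Pkp3 as percentages of their sum. Pkp2 is a sliver of 1.05% and 1.35% in the basal bars and 32.9% and 44.4% in the luminal bars.

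Among the armadillo proteins, plakoglobin is shared between desmosomes and adherens junctions. Jup was at 3570 and 4339 normalized counts in basal and 4511 and 2680 in luminal libraries. The highest and the lowest value were both luminal. Its log2 fold change was -0.18 with a 95% interval from -0.98 to 0.62 (limma, adjusted p = 0.779), and its sign was positive under 3 of the 15 alternatives. The values do not show that Jup was equal in the cell types.

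The plakophilins are plaque proteins that gather the cadherins and desmoplakin. Their differences were not all in 1 direction. Pkp1, the plakophilin of stratified epithelia, was at 5179 and 2429 in basal and at 484 and 125 in luminal libraries. The basal average was 12.5-fold the luminal one, on 25 and 4 luminal reads. The log2 fold change of Pkp1 was -3.84 ± 0.72 (SE, n = 2 per group) with an adjusted p of 0.0701 by limma and 0.00235 by edgeR, and by limma it was -2.87 without luminal replicate 2 and -4.82 without luminal replicate 3. Pkp2, the plakophilin of simple epithelia and heart, was at 69 and 45 in the basal libraries and 542 and 374 in the luminal ones. Pkp2 was the only member with both luminal libraries above both basal libraries. The counting intervals of its normalized counts, on 11, 7, 28 and 12 reads, were 34.4 to 123 and 18.3 to 93.6 in basal and 360 to 784 and 193 to 653 in luminal cells, so they did not meet. The luminal average of Pkp2 was 8.04-fold the basal one, with a log2 fold change of 2.99 ± 0.61 (SE, n = 2 per group) and an adjusted p of 0.0705 by limma and 0.0151 by edgeR. Pkp3, found in most epithelia, was at 1309 and 903 in basal and 620 and 343 in luminal cells. Although these groups did not overlap, the log2 fold change of Pkp3, -1.24 ± 0.41 (SE, n = 2 per group), did not pass either test (adjusted p = 0.206 by limma and 0.159 by edgeR).

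Within the reads of the plakophilins, the leading gene was Pkp1 in both basal libraries and not in either luminal library. Pkp1 gave 79.0% of plakophilin reads in basal replicate 1 (95% Wilson interval 76.4% to 81.3%) and 71.9% in basal replicate 3 (67.9% to 75.6%), against 29.4% in luminal replicate 3 (20.8% to 39.8%) and 14.8% in luminal replicate 2 (5.92% to 32.5%). Pkp2 gave 1.05% (0.588% to 1.87%) and 1.35% (0.654% to 2.75%) in the basal libraries and 32.9% (23.9% to 43.5%) and 44.4% (27.6% to 62.7%) in the luminal libraries. Pkp3 gave the rest, with intervals of 17.7% to 22.5% and 23.1% to 30.7% in basal and 28.1% to 48.3% and 24.5% to 59.3% in luminal libraries. In luminal replicate 3 Pkp3 had the most reads and in luminal replicate 2 Pkp2 did, with intervals that overlapped between the genes. The Pkp1 to Pkp2 ratio differed by -6.83 on the log2 scale (luminal minus basal; -6.13 without luminal replicate 2 and -7.54 without luminal replicate 3), the Pkp1 to Pkp3 ratio by -2.61 and the Pkp2 to Pkp3 ratio by 4.23.

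Desmoplakin, the plakin that anchors keratin filaments to the plaque, had the highest normalized count of the 10 genes in every library. Dsp was at 24938 and 22073 in basal and at 10514 and 7230 in luminal libraries. The groups did not overlap, the basal average was 2.65-fold the luminal one, and the log2 fold change of Dsp was -1.43 ± 0.27 (SE, n = 2 per group) with an adjusted p of 0.0705 by limma and 0.0270 by edgeR. Gm10129 lies antisense over the start of Dsp and was at 927 and 864 against 426 and 561. Gm16090 lies antisense to the end of Dsg2 and was at 413 and 279 against 77 and 125. Whether the counting used strand is not given in the sources used here, so reads in these overlaps cannot be told apart.

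Perp is a tetraspan membrane protein of desmosomes and a target of p63 in stratified epithelia. It was at 7691 and 8834 in basal and at 1239 and 686 in luminal libraries. Perp was the 1 member that limma called, with a basal average 8.58-fold the luminal one, a log2 fold change of -3.16 ± 0.34 (SE, n = 2 per group) and an adjusted p of 0.0410. edgeR gave an adjusted p of 0.00055. The limma call was lost when any 1 library was left out, at adjusted p values between 0.0549 and 0.25, while the log2 fold change stayed between -3.58 and -2.73. It was also lost under 5 other alternatives, at 0.0502 to 0.228. Perp and Dsp were near the same level in both basal libraries, with a basal replicate 1 to replicate 3 ratio of 0.871 for Perp and 1.13 for Dsp. Pkp1 and Dsc3 were higher in basal replicate 1, at ratios of 2.13 and 2.55. So were Dsg2 (1.42), Dsc2 (1.43), Pkp3 (1.45) and Pkp2 (1.53), while Jup was lower there (0.823). Trp63, which encodes p63, was at 14611 and 5015 in the same libraries, a ratio of 2.91.

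Dsp and Jup, the member with the highest count and the member whose groups overlapped, are shown by the 250 bases before their RefSeq start, since their promoters were the 2 of 10 members held by the RefSeq promoter table for GRCm38.p6. Capitals mark the GC box GGGCGG on either strand, a common element of promoters without a TATA box, and the sequences are written 5′ to 3′ along each gene.
Dsp, chr13:38151044-38151293, plus strand: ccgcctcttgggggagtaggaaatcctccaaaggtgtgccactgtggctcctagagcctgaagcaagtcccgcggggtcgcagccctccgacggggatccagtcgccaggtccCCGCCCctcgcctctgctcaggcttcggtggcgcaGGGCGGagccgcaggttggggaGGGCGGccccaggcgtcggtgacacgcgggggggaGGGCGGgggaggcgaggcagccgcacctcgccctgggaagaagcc
Jup, chr11:100397791-100398040, minus strand: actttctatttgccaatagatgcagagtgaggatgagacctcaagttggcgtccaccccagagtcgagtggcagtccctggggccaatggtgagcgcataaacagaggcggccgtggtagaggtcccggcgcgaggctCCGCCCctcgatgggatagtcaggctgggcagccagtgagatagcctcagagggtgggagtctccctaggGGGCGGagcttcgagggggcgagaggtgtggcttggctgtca
The Dsp window held 4 GC boxes and the Jup window 2, and 32.7% of 32817 promoters in the table held at least 1. The windows were 72.4% and 62.0% G and C, against a median of 52.4%. Neither window held the letters TATAAA (in 12.4% of promoters), the E-box CACCTG (17.2%), the AP-1 motif TGANTCA (6.75%) or the Grainyhead motif AACNGGTT (1.78%), searched on both strands. These matches describe the letters and were not tested for binding.

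The genes lie on several chromosomes of GRCm38, and only the cadherins are clustered. Dsp spans chr13:38151294-38198577 on the plus strand, Jup chr11:100368958-100397763 on the minus strand, Pkp1 chr1:135871395-135919207 on the minus strand, Pkp2 chr16:16213318-16272712 on the plus strand, Pkp3 chr7:141078218-141090510 on the plus strand and Perp chr10:18845020-18857073 on the plus strand. On chromosome 18 Dsc3 (19960930 to 20002351) and Dsc2 (20030633 to 20059554) lie on the minus strand, and Dsg3 (20510274 to 20547459) and Dsg2 (20558074 to 20604521) on the plus strand. Neighbours in this cluster had unlike levels. Dsg3 was at 0 beside Dsg2 at up to 5605 normalized counts.

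Levels were compared between genes per kilobase of exon, counted as the union of each gene's annotated exons. In basal cells the averages per kilobase were 4233 for Perp, 2434 for Dsp, 757 for Pkp1, 639 for Dsc2, 614 for Jup, 578 for Dsg2, 403 for Dsc3, 306 for Pkp3 and 10.6 for Pkp2. Perp and Dsp stood above the others in both basal libraries, while Pkp1, Dsc2, Jup and Dsg2 had overlapping values (from 483 to 1031 for Pkp1, 526 to 753 for Dsc2, 555 to 674 for Jup and 478 to 678 for Dsg2). In luminal cells they were 919 for Dsp, 559 for Jup, 493 for Perp, 210 for Dsg2, 182 for Dsc2, 133 for Pkp3, 85.4 for Pkp2, 60.6 for Pkp1 and 8.98 for Dsc3. Dsp lay above Jup in both luminal libraries, and Jup and Perp overlapped (416 to 701 for Jup and 351 to 635 for Perp). Dsg2 and Dsc2 also overlapped, as did Pkp2 and Pkp1. With the longest transcript as the length, Jup moved to the third place in basal cells (1234 per kilobase) and to the first in luminal cells (1122, with Dsp at 925).

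Relative to Jup within each library, Perp, Dsp, the summed cadherins and the summed plakophilins were lower in luminal cells, while Pkp2 alone was higher (0.0232 and 0.0125 times Jup in basal and 0.144 and 0.168 times in luminal cells, per kilobase). Per kilobase, Perp was 7.10 and 6.71 times Jup in the basal libraries and 0.906 and 0.844 times Jup in the luminal libraries. Dsp was 4.65 and 3.39 times Jup in basal and 1.55 and 1.80 times in luminal cells. The 4 cadherins together were 3.62 and 1.83 times Jup in basal and 0.700 and 0.745 times in luminal cells, and the 3 plakophilins 2.53 and 1.10 times against 0.526 and 0.455 times. None of these ratios overlapped between the groups. Of all genes kept, 27.3% did not overlap with luminal lower and 23.6% with luminal higher. The share of all genes whose ratio to Jup does not overlap was not computed. These ratios are not independent of each other, since they share Jup. Their size depends on the length taken for Jup. With longest transcripts in place of the union of exons, Dsp was 2.33 and 1.70 times Jup in basal and 0.779 and 0.901 times in luminal cells, and Perp 3.54 and 3.34 times against 0.451 and 0.420 times, and all 4 sets of ratios still did not overlap. By the union of exons, Jup itself was 0.317 and 0.244 times Cdh1, the E-cadherin of adherens junctions, in basal and 0.271 and 0.258 times in luminal cells, which overlapped. As ratios of normalized counts to those of Cdh1, which marks epithelial RNA in general, Dsp was at 3.12 and 1.75 in basal and 0.890 and 0.979 in luminal cells, and Perp at 0.962 and 0.699 against 0.105 and 0.0929. Dsg2 was at 0.701 and 0.313 against 0.159 and 0.215 times Cdh1, and Pkp2 at 0.00863 and 0.00356 against 0.0459 and 0.0506. On the log2 scale the Dsp to Jup ratio differed by -1.25 (luminal minus basal), with the exact permutation p at its smallest possible value given above. By the union of exons Dsg2 made up 33.7% and 38.85% of cadherin level per kilobase in basal cells and 46.3% and 61.9% in luminal cells.

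**Figure D4:**
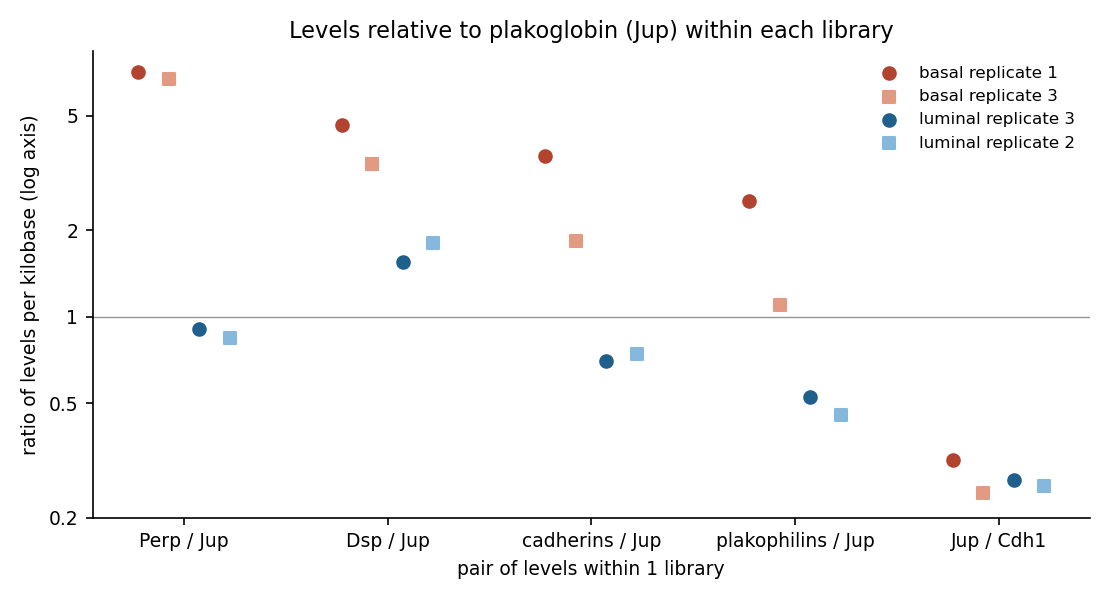
Ratios of levels per kilobase (log axis) within each library, with 1 point per library. Cadherins are the sum of Dsg2, Dsg3, Dsc2 and Dsc3 and plakophilins the sum of Pkp1, Pkp2 and Pkp3. The first 4 ratios are lower in both luminal libraries, and Jup over Cdh1 lies between 0.244 and 0.317 in all 4.

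No difference was called for the other desmosome genes. Of the 6 listed, Dsg1a, Dsg1b and Dsg4 were at 0 in all 4 libraries, and the Dsg1 genes are near copies of each other, so that their counts are uncertain. The 3 kept were called by neither limma nor edgeR, and 0 had an unadjusted limma p under 0.05. Dsc1 was at 376 and 91 in basal and 136 and 218 in luminal cells. Pkp4, an armadillo protein found at several kinds of junction, was at 3432 and 2982 in basal and 2788 and 3428 in luminal cells, with a log2 fold change of -0.05 ± 0.23 (SE, limma, adjusted p = 0.929).

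The plakins, the family of desmoplakin, link keratin and other filaments to junctions and to the matrix. Of 5 kept, limma called 1 and edgeR 2 lower in luminal cells and neither called any higher, although 1 was higher at an unadjusted limma p under 0.05. The list's median log2 fold change was -1.19. Dst, which encodes the plakin of hemidesmosomes in basal keratinocytes and forms in other tissues, was at 91710 and 98605 in basal and 14347 and 14802 in luminal cells, with an adjusted p of 0.0354 by limma at a log2 fold change of -2.71 ± 0.26 (SE). Plec, the cytolinker plectin, was at 22151 and 19643 in basal and 5654 and 8694 in luminal cells, with an adjusted p of 0.0688 by limma and 0.0122 by edgeR. Evpl, an envelope plakin, was at 188 and 201 in basal and 426 and 748 in luminal cells and was called by neither.

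The keratins that desmoplakin binds differed in both directions. Of 9 kept, limma called 3 lower and 1 higher, edgeR called 4 lower and 3 higher, and the median was -1.36. Krt14 was at 10628 and 12173 in basal and 116 and 93 in luminal cells. Krt15 was at 13001 and 9510 against 1898 and 1465, with an adjusted p of 0.0384 by limma. Krt17 was at 3939 and 7548 against 387 and 93, with an adjusted p of 0.0637 by limma and 0.000639 by edgeR. Krt19, a keratin of simple epithelia, was at 601 and 552 in basal and 8306 and 4332 in luminal cells, with a log2 fold change of 3.38 ± 0.36 (SE, limma, adjusted p = 0.0410). Krt8 was at 3012 and 4287 in basal and 13302 and 8320 in luminal cells and Krt18 at 5874 and 6710 against 17523 and 11437. Dsp was therefore lower in the cells with more Krt8, Krt18 and Krt19 counts, and the sum over the 9 keratins was 56006 and 57293 in basal and 42113 and 26300 in luminal libraries.

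In the adherens junction, the neighbouring cadherin junction that anchors actin, no difference was called by either test for Cdh1, the E-cadherin gene. Cdh1 was at 7997 and 12647 in basal and 11811 and 7386 in luminal cells. Of 11 genes kept, limma called 1 lower and none higher and edgeR called 2 lower and 1 higher, and at an unadjusted limma p under 0.05 there were 3 lower and 1 higher. The median log2 fold change was -0.34. Cdh3, the P-cadherin of basal cells, was at 3194 and 2040 in basal and 0 and 93 in luminal libraries. Nectin1, an adhesion receptor of the immunoglobulin family, was at 8367 and 4859 in basal and 465 and 592 in luminal cells, with an adjusted p of 0.0354 by limma at a log2 fold change of -3.60 ± 0.34 (SE). Its relative Nectin4 was at 44 and 26 in basal and 426 and 499 in luminal cells, with an adjusted p of 0.0688 by limma and 0.00688 by edgeR. Nectin1 and Nectin4 thus differed in opposite directions between the cell types. Nectin2, of the same family, was at 457 and 805 in basal and 833 and 499 in luminal cells, which overlapped. No pattern among paralogues was tested.

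**Figure D5:**
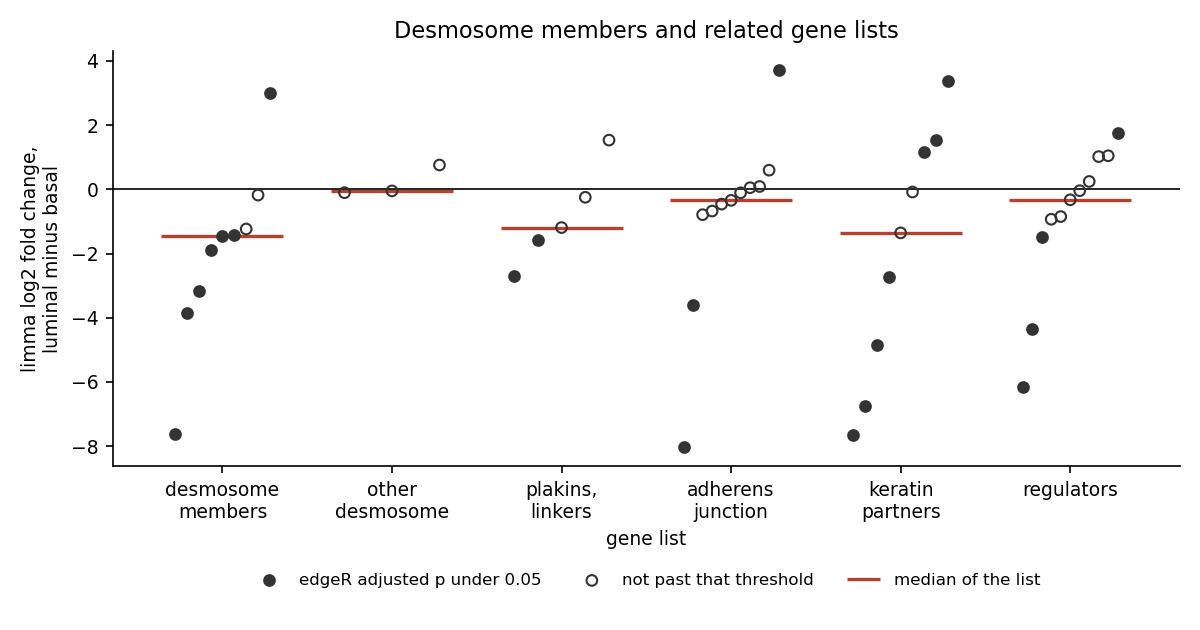
limma log2 fold change (luminal minus basal) of each gene kept in 6 lists, with 1 point per gene. Filled points passed an adjusted p of 0.05 by edgeR, open points did not, and lines are list medians. The median is -1.45 for the desmosome members, -1.36 for keratin partners, -1.19 for plakins and -0.34 for adherens junction genes.

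Genes that turn desmosomes over or load calcium stores, on which desmosomal adhesion depends, numbered 9 kept. limma called none, edgeR called 1 higher, and at an unadjusted limma p under 0.05 there was 1 higher. This gene was Prkca, the protein kinase C alpha known to act on desmosomal adhesion, at 294 and 507 in basal and 2207 and 2711 in luminal cells, with a log2 fold change of 2.66 ± 0.36 (SE, limma, adjusted p = 0.0579) and an adjusted p of 0.00173 by edgeR. Flot1 and Flot2, which encode flotillins, were lower in both luminal libraries (551 and 552 against 387 and 187 for Flot1, and 1021 and 630 against 310 and 499 for Flot2) but were called by neither test. Among 11 regulators of junction genes kept, limma called 1 and edgeR 3 lower and edgeR 1 higher, with a median of -0.33. Trp63 was at 155 and 93 in luminal cells, with an adjusted p of 0.0354 by limma. Snai2, a repressor of epithelial cadherins that is also a basal cell gene, was at 1791 and 2046 in basal and 39 and 218 in luminal cells. Grhl1, a Grainyhead factor known to act on desmosomal cadherin genes in skin, was at 651 and 572 in basal and 2265 and 1870 in luminal cells, with an adjusted p of 0.0637 by limma and 0.00767 by edgeR. Whether Grhl1 acts on any member in these cells was not tested.

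No difference was called for the tetraspan relatives of Perp. Of 5 kept, limma and edgeR called none, 0 had an unadjusted limma p under 0.05, and the median log2 fold change was -0.41. Emp1 was at 5154 and 10198 in basal and 4531 and 6482 in luminal cells, Pmp22 at 557 and 1228 against 329 and 1184, and Tmem47 at 896 and 1026 against 387 and 1153. Each of these overlapped between the groups.

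Several values moved with these results. All 9 detected members were lower in luminal replicate 2 than in luminal replicate 3, with luminal replicate 3 to replicate 2 ratios from 1.18 for Dsg2 to 3.87 for Pkp1 among the 8 above 0 in both. Luminal replicate 2 had the lowest depth, 643270 recovered reads, and Pkp1 and Dsc3 rest on 4 and 0 reads there. The share of all genes lower in that library was not computed. Cdh1, Epcam (9081 and 6170), Krt8 and Krt18 were lower in luminal replicate 2 as well, while the stromal sum was higher there. The 10 dissociation stress genes summed to 347295 and 186089 in basal against 128896 and 199502 in luminal libraries. limma and edgeR called none of them, 0 had an unadjusted limma p under 0.05, and the largest fold changes were those of Egr1, Fos and Junb, at -0.94 for each of Egr1 and Fos. All libraries were also rescaled to equal Cdh1, an alternative chosen after seeing the data. limma then called 3 members lower (Pkp1, Dsc3 and Perp), with 125 of all genes called lower against 82 without the rescaling. For the other members kept the limma adjusted p rose with this rescaling. It was 0.576 for Dsp, 0.446 for Dsg2, 0.218 for Dsc2, 0.627 for Pkp3, 0.128 for Pkp2 and 0.989 for Jup. Genes of urothelium and seminal vesicle, tissues next to the prostate, summed to 163 and 149 in basal and 1491 and 1277 in luminal libraries, and edgeR called 3 of the 4 kept higher in luminal cells, among them Upk1a and Upk1b. The 4 neuroendocrine genes summed to 19, 32, 581 and 0. The part of these cells and of dissociation in the desmosome differences was not tested.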

How the data were processed

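RNA-seq of 4 libraries was analysed. Per the study's methods, the authors made libraries with the Ovation Solo system, mapped reads to GRCm38 with STAR, obtained gene counts with HTSeq and scaled each library to the same aligned-read total. The deposited signal per gene is this normalized count rounded to a whole number. Picard is also named in the submitters' processing notes, without its role. How duplicates and strand were treated is not given in the sources used here. Values up to 20 reads lay within 0.1 read of a whole multiple of 1 read's value for 97.5% to 99.0% of values, and reads were recovered by division. The spacing did not hold for all values in any library.

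limma 3.58.1 (R 4.3.3) was fitted to log2(normalized count + 1) with a trended prior and no covariates. edgeR 4.0.16 (TMM) and DESeq2 1.42.0 on recovered reads, other filters, pseudocounts, scalings and each library left out were alternatives. Exact permutation tests over libraries were two-sided. Scripts were tested on simulated data. Coordinates came from GENCODE M21, matched for 49326 of 49671 genes.

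The 10 members and all gene lists were chosen with earlier results of these data known. All members are named. From other lists the text names genes with a limma adjusted p under 0.05, up to 3 with the largest fitted change among those averaging 100 or more, and the sort and gate markers. Antisense neighbours, Cdh1, Nectin2 and the genes at 0 were added.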

Additional observations from a re-analysis of the deposited data

How the results depend on the processing

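The direction of each of the 8 members with separated groups held under every alternative that gave it a value (Dsc3 had none with the filter in both groups). For separated groups, leaving out a library or changing the pseudocount, the prior or the filter cannot turn the sign. Only the rescalings, quantile normalization, edgeR and DESeq2 could have turned it. The median log2 fold change of the members ranged from -1.70 to -1.12. For Jup the sign turned with nuclear protein-coding rescaling (0.13), quantile normalization (0.18) and without luminal replicate 2 (0.20), with -0.55 to 0.20 over the libraries left out. Members called lower numbered 6 by edgeR and by DESeq2, 5 with the filter in both groups and with pseudocount 10, 3 with Cdh1 rescaling, and 0 without a trended prior, with median-ratio or nuclear protein-coding rescaling, with no filter, with pseudocount 0.5 and without any single library. Members called higher numbered 1 by edgeR, by DESeq2 and with the filter in both groups. At a 4-fold rule 3 members were lower and 1 higher, against 6.05% and 7.77% of all genes. With pseudocount 10 the Pkp2 to Pkp3 ratio differed by 4.02 and the Dsc3 to Dsc2 ratio by -4.04.

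Over all genes, limma called 82 lower and 48 higher. The calls were 509 and 453 by edgeR, 416 and 403 by DESeq2, 409 and 269 with the filter in both groups, 321 and 223 without a trended prior, 0 and 0 with no filter, 34 and 20 with pseudocount 0.5, 319 and 212 with pseudocount 10 and 125 and 119 with Cdh1 rescaling. Quantile normalization gave 104 lower and 277 higher. Leaving out a library gave 14 to 751 lower and 6 to 830 higher. The causes were not tested. No paired analysis was possible because the groups share only 1 replicate number. The median of all genes moved from -0.10 to 0.21 with nuclear protein-coding rescaling. Depth limits Dsc3, Pkp1 and Pkp2 in luminal cells, where each rests on 0 to 28 reads. The Dsg3 to Dsg2 ratio was not computed because Dsg3 was at 0.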
